A study of Mus musculus with 5 samples.

Results

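The subunits of the mitochondrial respiratory chain were followed across 5 arrays of mouse CD4 T cells. Members were the probe sets whose only gene symbol in the platform annotation begins with Ndufa, Ndufb, Ndufc, Ndufs, Ndufv, Sdh, Uqcr, Cox4, Cox5, Cox6, Cox7, Cox8 or Atp5. The rule gave 183 of 45037 probe sets and 93 of 18193 genes. A gene entered by its name and not by its values, though the rule was chosen with earlier results of these data known. Complex I held 42 of these genes, complex II 8, complex III 8, complex IV 18 and complex V 17. The prefixes also take in 12 assembly factors, named Ndufaf or Sdhaf, which help to build a complex and are not part of the finished enzyme. The cells were splenic CD4 T cells of the BALB/c strain, hybridised to Affymetrix expression arrays, and each of the 5 groups has 1 array. Naive and memory Th1 cells carry the label of primary cells, and the other groups that of cultured cells: control effector, TOFA effector and Rap effector Th1 cells. Th1 culture was with IL-2 at 15 ng/ml and IL-12 at 10 ng/ml for 5 days, and the labels attach this protocol to every sample, naive and memory cells included. TOFA inhibits acetyl-CoA carboxylase, the enzyme that commits acetyl-CoA to fatty acid synthesis, and the title of the study concerns its form Acc1. The labels do not expand Rap, and give no dose of either agent, no age or sex of the mice and no number of mice behind an array.

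The respiratory chain moves electrons from NADH and succinate to oxygen in the inner mitochondrial membrane and uses the energy to make ATP. Complex I oxidises NADH, complex II oxidises succinate, complex III passes electrons from ubiquinol to cytochrome c, complex IV reduces oxygen and complex V is the ATP synthase. Most subunits are encoded in the nucleus and some of complexes I, III, IV and V in mitochondrial DNA. Naive T cells rest on oxidative metabolism at a low rate, activated effector cells raise both glycolysis and respiration, and memory T cells are known for spare respiratory capacity and for fatty acid oxidation.

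The text gives quantile normalised signals, in which every array has the same distribution of values, and differences between arrays on the log2 scale, on which 1 is a 2-fold difference. Signals under 43.4, the 40th percentile, were treated as a floor. The brightest probe set stood for each gene, and levels were compared between arrays and never between genes. Of the 93 genes, 87 were above the floor on all 5 arrays and 3 on some of them. The other 3, Ndufa4l2, Cox7b2 and Cox8b, were at the floor on every array. With 1 array per group there is no replicate, so no difference below has a test, an SD between replicates or a p-value, and precision is limited by the small number of arrays. The labels do not say whether an array stands for 1 culture or a pool. The one internal measure of error is how far probe sets of 1 gene differ from each other, which for these genes had an SD on the log2 scale of 0.42 for control effector against naive and of 0.20 for TOFA against control effector. It was 0.27 for Rap against control effector, 0.25 for TOFA against Rap, 0.29 for memory against naive and 0.31 for memory against control effector.

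Whole-array facts bear on the comparisons that follow. As signs of RNA quality, the 3' to 5' ratio of control probe sets ranged from 0.832 to 0.918 for Gapdh and from 1.26 to 1.45 for beta-actin. The median signal as deposited lay between 63.1 and 99.5, with the memory array highest. All 8 measured T cell identity genes were above the floor on every array, with a summed signal between 55139 and 78942. Markers of other cells differed by array. The summed signal of 10 B cell markers was 33678 in naive, 55273 in memory and between 2051 and 2798 in the effector arrays. That of 11 myeloid markers was 6275 in naive, 66607 in memory and between 354 and 645 in the effector arrays. Of the other lists, the 8 dendritic markers summed to 22556 in memory and between 2621 and 5790.2 elsewhere, and the 4 erythroid markers to 2535 in memory, 270.2 in naive and between 40.6 and 71.6 in the effector arrays. The 5 NK markers summed to between 376 and 2059, with Rap effector highest, and their members also went opposite ways. Most of the Rap signal was Eomes at 1948, while Ncr1 was at 3.61 in Rap effector, 83.8 in naive and 102 in memory. The 2 CD8 markers summed to between 317 and 1072, with memory highest. The 6 plasma cell markers summed to 15078 in naive, 23686 in memory and between 34775 and 36672 in the effector arrays, with members that went opposite ways. Xbp1 was between 28687 and 30479 in the effector arrays and at 6714 in naive and 11671 in memory, while Jchain was between 29.2 and 50.4 in the effector arrays and at 7089.7 in naive and 8561 in memory. Of the dendritic markers, Batf3 was the one between 3678 and 4932 in the effector arrays, with 85.1 in naive and 293 in memory, while Cd74 was at 9965 in memory and between 162 and 826 elsewhere. In such bulk samples, fewer cells of a type and less RNA per cell cannot be told apart. The part of these other cells in any difference that involves the naive or memory array was not tested.

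Promoter sequences are shown for 3 members because they hold the sites most often linked to this gene group and because their values are described in detail for complexes II and III. NRF1, the GABP form of ETS factors, YY1 and the oestrogen-related receptor alpha are known activators of nuclear respiratory genes. RefSeq (GRCm38.p6) gave a window from 250 bases before to 50 after the start for 78 members. On either strand, the NRF1 motif (GCGCA and GCGC with 1 base of any kind between them) occurred in 19 of them, or 24.4%, against 5.19% of 27025 genes and 13% of 8057 genes above the floor on all arrays. The ETS motif CCGGAAG occurred in 22 members, or 28.2%, against 9.93% and 22.7%. The YY1 motif AAGATGGCG was in 7 members, or 8.97%, against 1.64% and 4.1%, and the receptor motif TCAAGGTCA in 2 members, or 2.56%, against 0.466% and 0.348%. None of the 4 motifs contains another, and a match describes the letters and not a bound site. The 250 bases before the start are printed 5′ to 3′ on the strand of the gene, with motif matches in capitals. Sdhd lies on the minus strand at chr9:50603850-50604099 and holds an NRF1 match 79 bases and an ETS match 46 bases before the start, and it is 1 of the 2 members with the receptor motif, which lies after the start and so outside the printed bases. Sdha lies on the minus strand at chr13:74350241-74350490 and holds NRF1 matches 98, 55 and 10 bases before the start. Uqcrh lies on the minus strand at chr4:116075071-116075320 and holds an ETS match 10 bases before the start.
Sdhd: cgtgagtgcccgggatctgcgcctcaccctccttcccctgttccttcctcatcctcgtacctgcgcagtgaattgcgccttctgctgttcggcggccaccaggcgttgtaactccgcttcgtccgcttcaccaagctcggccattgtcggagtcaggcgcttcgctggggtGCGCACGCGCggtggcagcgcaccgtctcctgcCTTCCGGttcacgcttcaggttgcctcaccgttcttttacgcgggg
Sdha: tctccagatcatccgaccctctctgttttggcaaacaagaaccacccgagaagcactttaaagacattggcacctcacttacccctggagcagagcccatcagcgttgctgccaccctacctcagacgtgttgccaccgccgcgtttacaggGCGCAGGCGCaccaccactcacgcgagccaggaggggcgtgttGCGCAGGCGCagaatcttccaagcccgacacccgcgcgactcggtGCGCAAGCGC
Uqcrh: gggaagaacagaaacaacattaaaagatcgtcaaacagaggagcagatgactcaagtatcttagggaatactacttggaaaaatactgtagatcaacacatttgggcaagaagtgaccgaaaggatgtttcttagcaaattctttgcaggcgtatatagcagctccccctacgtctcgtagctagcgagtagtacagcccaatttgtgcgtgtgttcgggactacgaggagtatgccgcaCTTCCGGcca
In control effector against naive cells, the 19 members with the NRF1 motif had a median difference of 0.24 and the 57 compared members without it 0.49. For the ETS motif the medians were 0.49 with it in 22 members and 0.34 without it in 54. Of complex II, Sdhd, Sdha, Sdhaf3 and Sdhaf4 hold an NRF1 match, and their differences in that comparison were 0.97, -0.70, -0.02 and -0.38, of which that of Sdha depends on the probe set, as given with its signals.

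After quantile normalisation, respiratory chain genes varied little across the 5 arrays and most were brighter in the effector cells. How little they varied depends on this step. With equal array medians, 47 members were at least 2-fold apart in memory against control effector. All 5 signals lay within 2-fold of each other for 75 of 87 members, or 86.2%, and for 52.2% of 9833 genes above the floor everywhere. They lay within 1.5-fold for 44 members, or 50.6%, and for 22.7% of all genes. All 3 effector arrays were above both the naive and the memory array for 53 of 87 members (60.9%), against 31.7% of all genes, and below both for 7 members (8.05%), against 26.1%. Over the alternative settings the count of 53 ranged from 46 to 71. With the memory array left out, all 3 effector arrays were above the naive array for 58 members, against 41.0% of all genes, and below it for 14, against 38.4%. The control effector array was the highest of the 5 for 37 members (42.5%; 19.0% of all genes) and the naive array the lowest for 45 (51.7%; 24.1% of all genes). Respiratory genes are bright, so genes with a mean signal of at least 5529 were also compared among themselves. There, all 3 effector arrays were above both others for 63.6% of 44 members and 33.5% of 638 other genes, and all arrays lay within 2-fold for 93.2% and 69.3%.

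The 7 members that were lower in all 3 effector arrays than in both others were Ndufa10, Ndufs7, Ndufaf8, Sdha, Sdhaf4, Ndufa4 and Cox7a2l, and they were looked up after the values were seen. With array medians made equal in place of quantile normalisation this count was 0, and with the values as deposited 4. The second probe set of Ndufs7, at 3007 (naive), 3569.6 (control effector), 3004 (Rap), 3358 (TOFA) and 3244 (memory), was not lower in all effector arrays. Nor was that of Sdha, nor dimmer ones of Ndufa10 and Ndufaf8, while both others of Cox7a2l were.

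**Figure D1:**
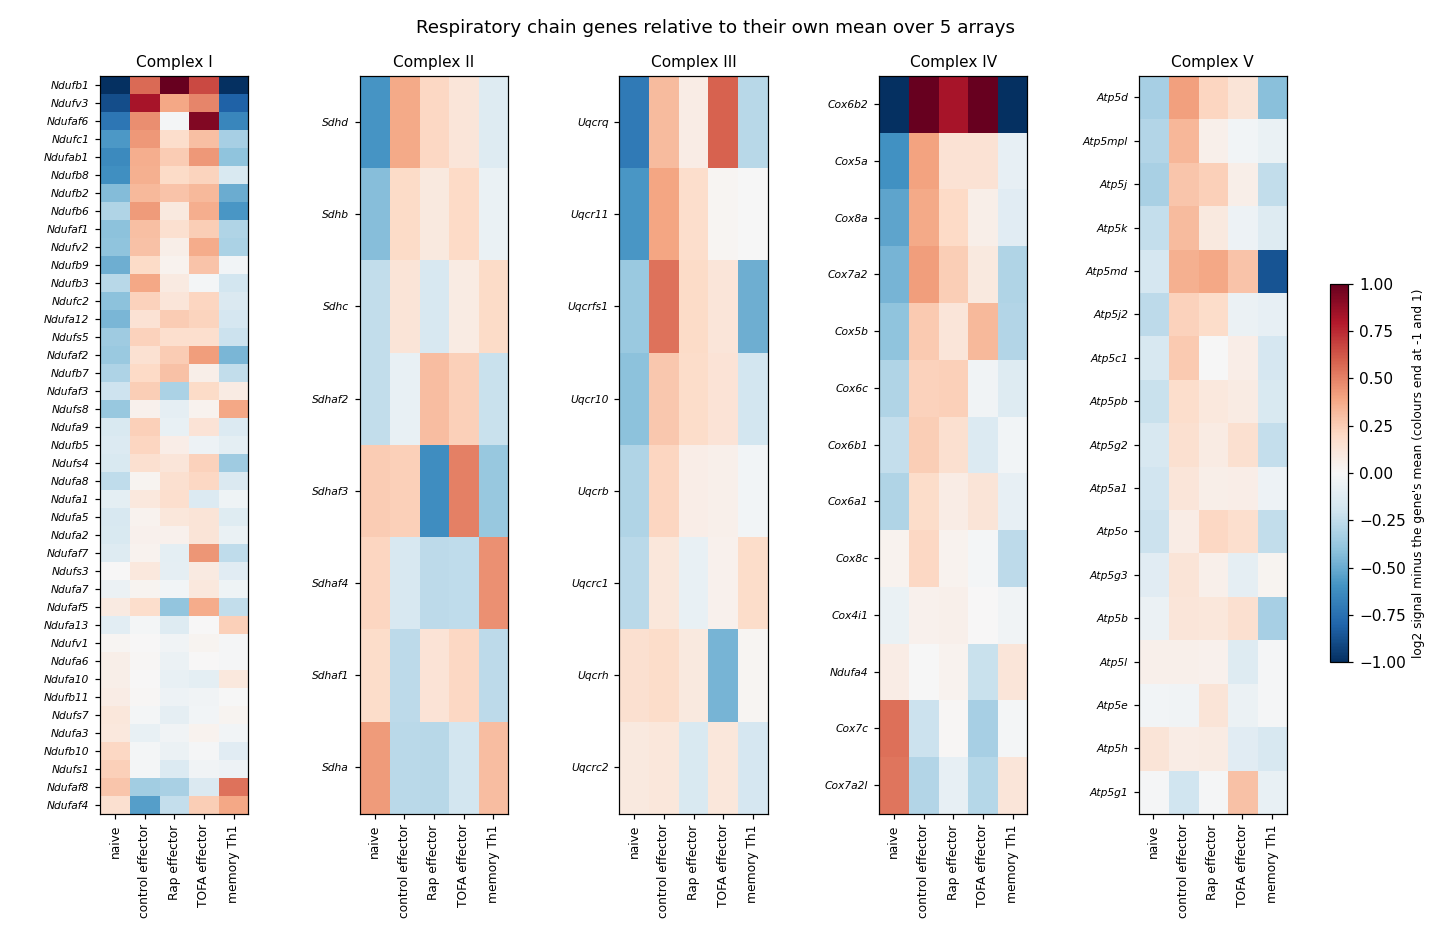
Each row is a respiratory chain gene above the floor on all 5 arrays, each column an array, and the colour is the log2 signal minus the mean of that gene over the 5 arrays, with colours ending at -1 and 1. Genes are sorted within each complex by control effector minus naive; the naive column is the lowest for 45 of 87 genes, and Cox7a2l, Ndufaf4 and Sdha at the foot of their panels run the other way.

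The first comparison set control effector cells against naive cells, that is, Th1 cells after culture against cells before activation. Of 90 members compared, 9 were at least 2-fold higher and 0 at least 2-fold lower, where 27.3% of all genes were 2-fold apart (15.9% higher and 11.4% lower). The share of members past 2-fold, 10.0%, was thus below that of all genes, and all 9 were higher. From 1.5-fold, 29 members were higher and 5 lower, against 26.3% and 22.3% of all genes. The difference was above 0 for 69 of 90 members, or 76.7%, against 52.0% of all genes. The median was 0.39 for members and 0.04 for all genes. A complex is called higher or lower here where at least 3 in 4 of its compared members lie on the same side of the median of all genes. By that rule complexes III, IV and V were higher, with medians of 0.60, 0.53 and 0.32 and with 6 of 8, 12 of 15 and 13 of 17 members above the median of all genes. Complex I (median 0.33, 31 of 42) and complex II (median 0.08, 4 of 8) were mixed. The medians of the complexes called higher were of the size of the spread between probe sets of 1 gene (SD 0.42). That spread is not the error of a median over several genes or between arrays. B cell and myeloid markers were at higher levels on the naive array, as given above. With values as deposited the count of 2-fold members was 15, and with array medians made equal 18.

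**Figure D2:**
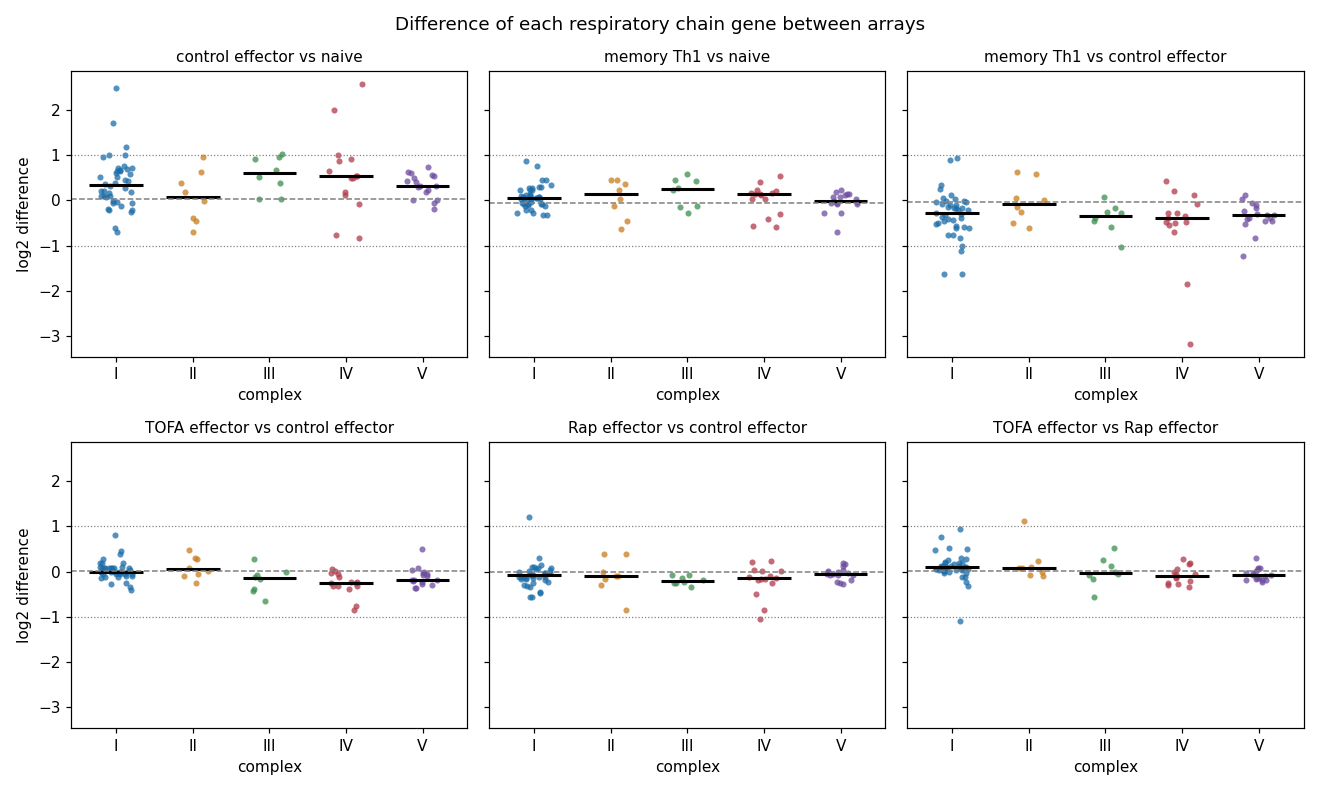
Each point is a respiratory chain gene, placed by complex, and the vertical axis is its log2 difference between the arrays named above each panel; the bar is the median of the complex, the dashed line the median of all genes compared and the dotted lines mark 2-fold. In control effector against naive cells the medians of complexes I, III, IV and V are between 0.32 and 0.60, while those of the TOFA and Rap panels lie between -0.26 and 0.10.

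Within complex I, core subunits were divided between control effector and naive cells on their brightest probe sets. The 6 core subunits on the list, the kind shared with bacterial enzymes, had a median of 0.04 in control effector against naive, with 3 above 0 and 3 below, and the 28 supernumerary subunits a median of 0.37, a gap that was not tested. This division depends on the probe set. Ndufs7 was at -0.13 and Ndufv1 at -0.01, while other probe sets gave 0.25 for Ndufs7 and 0.19 and 0.09 for Ndufv1. Ndufs8, above 0 on its brightest, had a dim probe set at -0.13. Ndufv1, which binds NADH and its flavin, had signals of 3286 (naive), 3259.9 (control effector), 3164 (Rap), 3298 (TOFA) and 3208 (memory). These 5 values were nearly the same, and both other probe sets of Ndufv1 were within 0.19 in control effector against naive. Ndufs1, which carries iron-sulphur clusters of the NADH-oxidising module, had signals of 3133, 2613, 2408, 2594 and 2562 in the same order, so the naive array was the highest. Ndufv2, another iron-sulphur subunit of that module, had signals of 4804, 7786, 6627, 8244 and 5117, and its 3 probe sets gave 0.70, 0.60 and 0.64 for control effector against naive. Ndufs8, an iron-sulphur subunit on the path to quinone, had signals of 4858, 6509, 5927, 6465 and 8269. It was at 0.42 for control effector against naive. Its memory array was the highest, and its 6 probe sets gave between -0.14 and 0.96 for memory against naive, 0.77 on the brightest.

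By module, the median in control effector against naive was 0.25 for the 8 members of the NADH-oxidising module, 0.15 for the 6 of the quinone-reducing module and 0.55 for the 20 of the membrane arm, which pumps protons. Of the membrane arm, 15 of 20 were above the median of all genes. Ndufv3, a supernumerary subunit of the NADH-oxidising module, had signals of 5707 (naive), 18647 (control effector), 13779 (Rap), 14766 (TOFA) and 6032 (memory). The naive and memory arrays were alike and all effector arrays at least as high as 13779, and control effector was 3.27-fold above naive, from 1 probe set. Ndufb1, an accessory subunit of the membrane arm, had signals of 55.4, 311, 712, 333 and 101 in the same order, or 5.62-fold for control effector over naive. Its naive signal was close to the floor, and it rests on 1 probe set. Ndufab1, the mitochondrial acyl carrier protein that doubles as a complex I subunit, had signals of 2717, 5438, 5036, 5701 and 3193, a difference of 1.0 from naive to control effector. Its dimmer probe sets gave 1.21, 0.55 and -0.93, and with the mean of all its probe sets the difference was 0.37. Ndufc1, another small membrane arm subunit, had signals of 4317, 8659, 7276, 7902 and 5101, and its 2 probe sets gave 1.0 and 1.14.

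Among 8 complex I assembly factors the difference from naive to control effector was above 0 for 6, against 52.0% of all genes, with a median of 0.31. The 12 assembly factors of complexes I and II together were mixed, with 7 above the median of all genes and 5 below. Ndufaf6, which is needed early in assembly, had signals of 278 (naive), 635 (control effector), 455 (Rap), 875 (TOFA) and 293 (memory). Naive and memory cells were alike and every effector array was above both, with control effector 2.29-fold over naive. Ndufaf4, which acts on the quinone-reducing module, had signals of 1508, 919, 1141, 1597 and 1765 in the same order. Control effector was its lowest array, at -0.71 against naive, and the other probe set gave -1.35. Ndufaf8, a partner of the assembly factor Ndufaf5, had signals of 2238, 1458, 1475, 1676 and 2696, at -0.62 for control effector against naive.

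Complex II, which is also an enzyme of the citric acid cycle and is wholly encoded in the nucleus, was divided in the same comparison. Sdhd, one of its membrane anchors, had signals of 2047 (naive), 4002 (control effector), 3558 (Rap), 3353 (TOFA) and 2820.4 (memory). On this brightest probe set the naive array was the lowest and control effector was 1.96-fold above it. The dimmer probe set gave 0.54, but memory was its lowest array, at 395 against 519 in naive. Sdhb, the iron-sulphur subunit, had signals of 5230.4, 8022, 7505, 8072 and 6721, a difference of 0.62. Sdhc, the other anchor, had signals of 949, 1232, 1007, 1189.7 and 1285, a difference of 0.38. Sdha, the flavin subunit that oxidises succinate, had signals of 5942, 3657, 3639, 3877 and 5460.3, so naive and memory were above all effector arrays and the difference was -0.70. A second Sdha probe set had signals of 2895, 3304, 2551, 2737 and 3216, a difference of 0.19, and a dim one gave 0.36, so the direction for Sdha depends on the probe set. The printed promoters of Sdhd and Sdha both hold NRF1 matches. The 4 complex II assembly factors had a median of -0.20, with Sdhaf1 at -0.45, Sdhaf4 at -0.38, Sdhaf3 at -0.02 and Sdhaf2 at 0.18.

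All 8 complex III members were above 0 in control effector against naive on their brightest probe sets, against 52.0% of all genes. Uqcrfs1, the Rieske iron-sulphur protein, had signals of 3636 (naive), 6850.4 (control effector), 5382 (Rap), 5119.7 (TOFA) and 3347 (memory). Naive and memory were close and all effector arrays higher, with 1.88-fold between control effector and naive. Uqcrq, a small subunit, had signals of 2239, 4540.2, 3831, 5498 and 3007, or 1.02, while its 3 other probe sets, all near the floor, gave between -0.01 and 0.20. Uqcr11, another small subunit, was at 0.97. The core proteins Uqcrc1 and Uqcrc2 were at 0.39 and 0.02, and Uqcrh, the hinge protein near cytochrome c1, was at 0.03. Uqcrc2 and Uqcrh were thus under the median of all genes, 0.04. The second probe set of Uqcrh gave -0.35 and that of Uqcrc2 0.12, so the direction for Uqcrh depends on the probe set.

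In complex IV, 8 of the 9 subunits of the general isoform were above the median of all genes in control effector against naive. Cox5a had signals of 11681 (naive), 23508 (control effector), 19619.7 (Rap), 19685 (TOFA) and 16810.4 (memory). Naive was the lowest array and control effector 2.01-fold above it, and the other probe sets of Cox5a gave 0.78 and 1.02. Cox7a2 had signals of 12350.4, 22765, 20209, 18265 and 13875, a difference of 0.88, and Cox8a was at 0.91. Cox4i1, the form of subunit 4 used in most tissues, had signals of 15033, 16245, 16338, 15835 and 15359, within 1.09-fold over all arrays. Cox7c was the exception among the general subunits at -0.77, but both of its probe sets were dim. The brightest was at 462 in naive and 272 in control effector, and the second, at 158 and 118, gave -0.41.

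Of the 6 complex IV isoforms known from other tissues or conditions, Cox7b2 and Cox8b were at the floor on every array, and the other four were compared. Cox6b2, the testis form, had signals of 72.4 (naive), 433 (control effector), 309 (Rap), 348 (TOFA) and 48.0 (memory). Every effector array was above both others, and control effector was 5.98-fold above naive on the 1 probe set. Cox7a1, the heart and muscle form, had signals of 20.6, 172, 83.9, 102 and 47.9, and since naive was under the floor, control effector was at least 3.98-fold higher. Cox4i2, a form linked to lung and low oxygen, was near the floor throughout, at 53.7, 78.2, 42.9, 28.2 and 59.7. Cox8c, another testis form, had signals of 269, 304, 269.9, 259 and 219, within 1.39-fold over all arrays. Cox7a2l, which links complexes III and IV into supercomplexes, had signals of 13536, 7612, 8809.8, 7660.0 and 10162. Naive was its highest array and control effector its lowest, 1.78-fold apart, and its other probe sets gave -0.70 and -0.76.

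In complex V, the median from naive to control effector was 0.31 for the 5 members of the head and central stalk, 0.34 for the 4 of the peripheral stalk and 0.24 for the 3 of the c ring. The 5 other membrane subunits had a median of 0.53, and 4 of 5 were above the median of all genes, 0.04. The remaining gene, Atp5l, was level, at 7861 in naive and 7879 in control effector. The head subunits Atp5a1 and Atp5b, which form the catalytic sites, were at 0.31 and 0.18. For Atp5a1 the second brightest probe set gave -0.45, so its direction depends on the probe set. Atp5d, of the central stalk, had signals of 8769 (naive), 14666 (control effector), 12825 (Rap), 12092 (TOFA) and 8256 (memory). Naive and memory were alike and the effector arrays higher, and its probe sets gave 0.74 and 1.04. With the mean of all probe sets, complex V was no longer called higher (11 of 17 above the median of all genes).

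**Figure D3:**
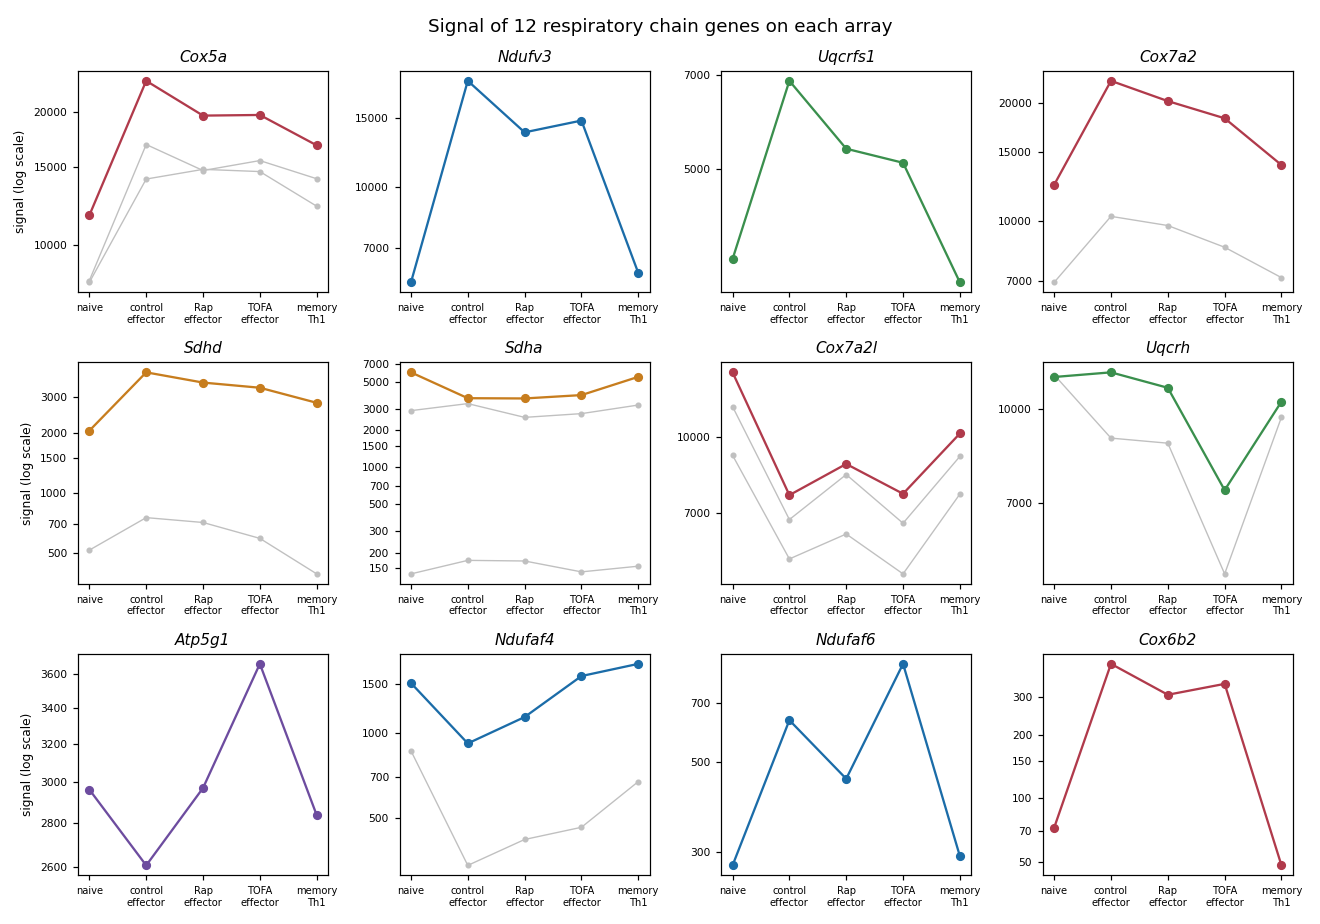
Each panel plots the signal of a gene on a log scale against the 5 arrays; the coloured points are its brightest probe set and grey points its other probe sets above the floor on all arrays, and lines join points of a probe set without implying an order of arrays. On their brightest probe sets, Cox5a, Ndufv3, Uqcrfs1 and Cox7a2 are highest on the control effector array. Cox7a2l is highest on the naive array and Uqcrh is lowest on the TOFA array at 7342. A grey Cox5a probe set is highest on the Rap array, and the probe sets of Sdha take different courses.

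The comparison of TOFA effector with control effector cells asks what differs in cells labelled with the carboxylase inhibitor. Of 89 members compared, 0 were 2-fold apart, where 4.62% of all genes were (2.47% higher and 2.15% lower). From 1.5-fold, 1 was higher and 3 were lower, against 8.64% and 8.20% of all genes. The difference was below 0 for 57 of 89 members, or 64.0%, against 48.6% of all genes, and the median was -0.05 against 0.01. Complexes III, IV and V were called lower, with medians of -0.15, -0.26 and -0.18 and with 1 of 8, 1 of 15 and 3 of 17 members above the median of all genes. Complex I, with a median of 0.00 and 19 of 41 above, and complex II, with 0.05 and 4 of 8, were mixed. The medians are of the size of the spread between probe sets of 1 gene (SD 0.20), which is not the error of a median over several genes or between arrays. With equal array medians the median of all genes was 0.11 and that of all members 0.06, on the other side of 0, while complexes III, IV and V were at -0.05, -0.16 and -0.09 and were still called lower.

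Uqcrh was the complex III member furthest below control effector. Its signals, 11297 (naive), 11499 (control effector), 10842 (Rap), 7342 (TOFA) and 10287 (memory), set the TOFA array apart from the other four, which lay close together. TOFA was 1.57-fold below control effector, and the other probe set, with 11391, 8951, 8779.6, 5337 and 9695, gave -0.75. Its printed promoter holds the ETS match and no other searched motif. Uqcrfs1 was at -0.42 and Uqcr11 at -0.38, while Uqcrq was at 0.28. With the mean of all probe sets, complex III was no longer called lower (3 of 8 above the median of all genes).

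Among the complex IV subunits of the general isoform, 1 of 9 was above the median of all genes in TOFA against control effector. Cox6b1, on the side facing cytochrome c, had signals of 12697 (naive), 17775 (control effector), 16737 (Rap), 13658 (TOFA) and 14734 (memory). The TOFA array was thus the lowest of the effector arrays, at -0.38 against control, and the other probe set gave -0.33. Cox7a2 and Cox8a were each at -0.32, Cox6c and Cox5a each at -0.26, and Cox5b at 0.06. The other probe sets of Cox5a gave 0.06 and -0.12. Cox7a1 was at -0.76, and Cox4i2 was at the floor in TOFA effector cells and at least 1.80-fold lower than in control effector.

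In complex V, 0 of the 5 other membrane subunits were above 0 in TOFA against control effector, with a median of -0.29. Atp5k, or subunit e, which holds synthase dimers together, had signals of 6448 (naive), 9509.9 (control effector), 8149 (Rap), 7373 (TOFA) and 6964 (memory), at -0.37. Its other probe sets gave -0.41 and -0.43. Atp5mpl was at -0.36, Atp5j2 at -0.29 and Atp5md at -0.07. Atp5g1, a gene for the c ring through which protons pass, had signals of 2963, 2607, 2971, 3664 and 2838, so TOFA was its highest array, at 0.49. Atp5g2 and Atp5g3, which encode the same mature protein, were at 0.00 and -0.21.

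Most of the assembly factors named Ndufaf or Sdhaf lay above control effector in TOFA effector cells. Of 8 for complex I, 6 were above 0, with a median of 0.24, and of 4 for complex II, 3 were above 0, with a median of 0.29. Ndufaf4 was at 0.80 (0.45 on its other probe set), Ndufaf6 at 0.46, Ndufaf7 at 0.40 and Sdhaf1, which helps to insert iron-sulphur clusters into Sdhb, at 0.47. All 12 together had a median of 0.27 with 9 of 12 above the median of all genes, while the 77 subunits compared had a median of -0.06 with 19 of 77 above. The longer list of assembly factors with other names was mixed, with a median of 0.05 and 21 of 35 above.

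In Rap effector against control effector cells, 1 of 89 members was 2-fold higher and 1 was 2-fold lower, where 5.73% of all genes were 2-fold apart (1.82% higher and 3.91% lower). They were Ndufb1, at 712 against 311, and Cox7a1, at 83.9 against 172. The difference was below 0 for 66 members, or 74.2%, against 50.4% of all genes, and the median was -0.09 against 0.00. Complexes II and III were called lower, with medians of -0.10 and -0.20 and with 2 of 8 and 0 of 8 members above the median of all genes. Both medians were smaller in size than the spread between probe sets of 1 gene (SD 0.27), which is not the error of a median over several genes or between arrays. Complexes I, IV and V were mixed, with medians of -0.07, -0.14 and -0.05. Uqcrfs1 was at -0.35, Uqcrc2 at -0.26 and Uqcr10 at -0.08. Sdhaf3, an assembly factor for the iron-sulphur subunit, had signals of 429.7 (naive), 424 (control effector), 234 (Rap), 511 (TOFA) and 276 (memory), and Rap was its lowest array. Of the c ring genes, Atp5g1 was at 0.19. The TOFA and Rap comparisons share the control effector array, so its values enter both. With values as deposited or equal array medians, complexes I, IV and V were also called lower, and by equal array medians, a floor at the 60th percentile or an added constant 1 member, not 2, was 2-fold apart.

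TOFA effector against Rap effector cells compares 2 arrays without the control. Of 88 members, 1 was 2-fold higher and 1 was 2-fold lower, where 4.63% of all genes were 2-fold apart (3.28% higher and 1.35% lower). Sdhaf3 was the higher one, 511 against 234, and Ndufb1 the lower one, 333 against 712. The difference was above 0 for 53 members, or 60.2%, against 52.7% of all genes, and the median was 0.04 against 0.02. Complex I was called higher, with a median of 0.10 and 31 of 41 members above the median of all genes, and complex V lower, with -0.08 and 4 of 17. Complexes II, III and IV were mixed, at 0.08, -0.03 and -0.10. All 8 complex I assembly factors were above 0, with a median of 0.50, led by Ndufaf6 at 0.94 and by Ndufaf5, which modifies Ndufs7, at 0.76. Ndufaf5 had signals of 405 (naive), 431 (control effector), 290.4 (Rap), 493 (TOFA) and 322 (memory). The Rap array was its lowest and the TOFA array its highest. With the mean of all probe sets, or without probe sets that can match several transcripts, neither complex I (30 of 41, 28 of 38) nor complex V (6 of 17, 4 of 15) kept its call.

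**Figure D4:**
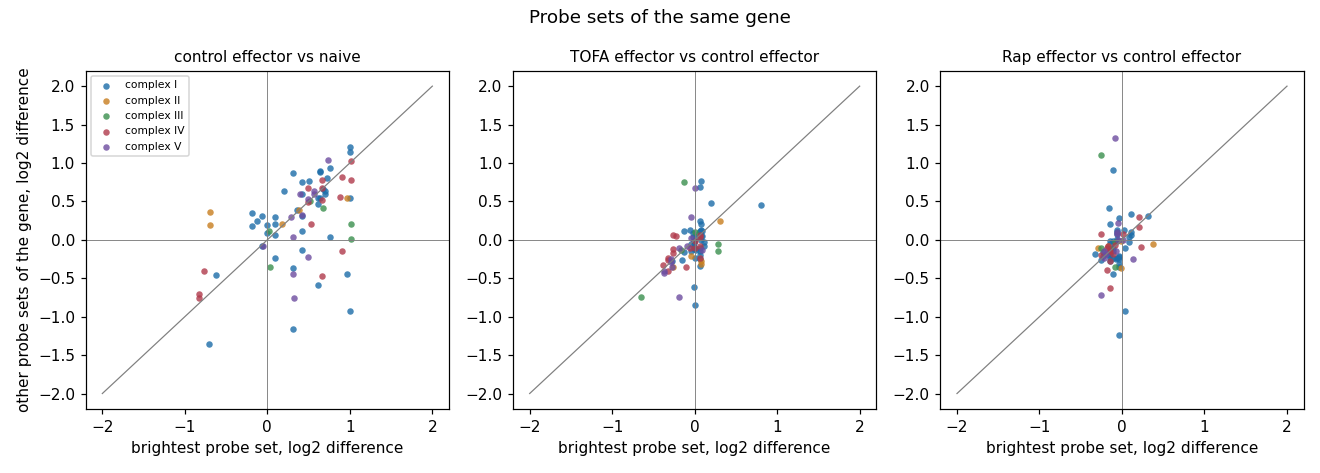
Each point is a further probe set of a respiratory chain gene, placed by the log2 difference of the brightest probe set of that gene (horizontal) and its own (vertical) in the comparison named above each panel; the diagonal marks equal differences. In control effector against naive cells 58 of 79 further probe sets lay on the same side of 0 as the brightest, in TOFA against control effector 51 of 79 and in Rap against control effector 58 of 78.

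Memory Th1 cells were set against naive and control effector cells, with the memory array also the one with the most signal from B cell, myeloid, dendritic and erythroid markers. Against naive, 0 of 90 members were 2-fold apart, where 16.7% of all genes were, and 2 were 1.5-fold higher and 3 lower, against 19.6% and 14.2%. The difference was above 0 for 56 members, or 62.2%, against 46.4% of all genes, and the medians were 0.06, 0.13, 0.25, 0.14 and -0.01 for complexes I to V, all of them mixed, against -0.05 for all genes. Ndufb1 was at 0.87 and Ndufs8 at 0.77. Atp5md, a small accessory subunit of the synthase, had signals of 4478 (naive), 6452 (control effector), 6582 (Rap), 6149 (TOFA) and 2761 (memory). Memory was its lowest array, at -0.70 against naive on its 1 probe set. With equal array medians the median over all members was -0.39 and that of all genes -0.36.

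Against control effector, 0 of 89 members were 2-fold higher in memory cells and 8 were 2-fold lower, where 28.6% of all genes were 2-fold apart (14.5% higher and 14.1% lower). The difference was below 0 for 73 members, or 82.0%, against 51.6% of all genes. The 8 were Ndufv3 at -1.63, Ndufb1 at -1.62, Ndufaf6 at -1.11, Ndufb6 at -1.01, Uqcrfs1 at -1.03, Cox6b2 at -3.17, Cox7a1 at -1.85 and Atp5md at -1.22. The median was -0.31 over all members and -0.03 over all genes. Complexes I, III, IV and V were called lower, at -0.28, -0.34, -0.39 and -0.32, and complex II was mixed at -0.07. Ndufaf4 at 0.94, Ndufaf8 at 0.89, Sdhaf4 at 0.62 and Sdha at 0.58 were on the other side. Other probe sets of Sdha gave -0.04 and -0.16, so its direction depends on the probe set, while those of Ndufaf4 and Ndufaf8 gave 0.99 and 0.62. The other probe set of Ndufb6 gave -0.53, short of 2-fold. This comparison shares the control effector array with the first, so its values enter both. With equal array medians 47 members were 2-fold apart and the median was -1.03 over members and -0.31 over all genes, and as deposited the medians were -0.49 and 0.18. With the mean of all probe sets complexes III and IV were no longer called lower (3 of 8 and 4 of 15 above the median of all genes), nor was complex I with a floor at the 20th percentile, an added constant or without probe sets that can match several transcripts.

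Genes of the pathway outside the symbol rule were read from lists of electron carriers, further assembly factors, mitochondrially encoded subunits, quinone-linked dehydrogenases and regulators. ND5, a complex I subunit encoded in mitochondrial DNA and the 1 gene of its list on the array, had signals of 24860.0 (naive), 10302 (control effector), 13229.5 (Rap), 11715 (TOFA) and 24478 (memory). Naive and memory were alike and more than 2-fold above control effector, at -1.27 for control effector against naive, opposite to the median of 0.33 of the nuclear-encoded complex I genes. Of 13 electron carrier genes compared in control effector against naive, 2 were 2-fold higher and 1 lower, with a median of 0.17, against 15.9% and 11.4% of all genes, which is about the same share. Cycs, the cytochrome c that shuttles between complexes III and IV, had signals of 10028, 14707, 16966, 16504 and 9088, with all effector arrays above both others. Coq7, an enzyme of ubiquinone synthesis, was at 1.57, Coq4 at 1.01 and Coq10b, a ubiquinone-binding protein, at -1.15.

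Of 36 further assembly factors compared, 5 were 2-fold higher in control effector against naive and 2 lower, with a median of 0.14, against 15.9% and 11.4% of all genes, so these shares were no larger than those of all genes. Higd1a, a hypoxia-inducible protein that associates with complex IV, had signals of 2199 (naive), 16737 (control effector), 11841 (Rap), 15033 (TOFA) and 2444 (memory). All effector arrays were far above both others, which were alike, and the difference was 2.93. Atpif1, the inhibitor of ATP synthase hydrolysis, had signals of 958, 4816, 4526, 4225 and 2023, a difference of 2.33. Cox17, which carries copper for complex IV, was at 1.07, Ttc19, a complex III factor, at -1.72 and Atpaf1, which helps to build the synthase head, at -1.19. In TOFA against control effector, 1 of 35 was 2-fold higher and 0 lower, against 2.47% and 2.15% of all genes, about the same share. The 1 higher gene was Sco1, another copper carrier, with signals of 178, 222, 408, 453 and 188, at 1.03, and Rap effector was at 0.88. Among 8 quinone-linked dehydrogenases, 1 was 2-fold higher and 1 lower in control effector against naive, too few to set against those shares. Etfb, which passes electrons from fatty acid oxidation to ubiquinone, had signals of 956, 2097, 1954, 2388 and 3914, with memory the highest array. Sqor, which oxidises sulphide, was at -1.40.

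Among 15 regulators compared, 2 were 2-fold higher in control effector against naive and 2 lower, with a median of -0.11, shares near the 15.9% and 11.4% of all genes. Hif1a, the subunit of the hypoxia factor, had signals of 6060.2 (naive), 18001 (control effector), 16245 (Rap), 23624 (TOFA) and 7628 (memory), with TOFA highest. Myc had signals of 2385, 5076, 8783, 4884 and 2329, with Rap highest. Ppargc1b, a coactivator of mitochondrial genes, was at -1.66 and Polrmt, the polymerase that transcribes mitochondrial DNA, at -1.32. Nrf1 itself, whose motif is counted above, was at -0.01, and Tfam, which packages mitochondrial DNA, at -0.08.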

How the data were processed

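Gene expression had been measured on Affymetrix arrays, 1 for each of 5 groups taken from the labels. The deposited table gives linear intensity by probe set. Per the submitters' processing notes, GCOS and Affymetrix Expression Console made these intensities, by an algorithm not given in the sources used here. After trimming 2%, the mean was 500.003 on every array. The medians of the arrays spanned 0.658 in log2 units, over the limit of 0.5, so arrays were quantile normalised and a floor set at the 40th percentile (43.4). The 2016 platform annotation names a single gene for 34945 of 45037 probe sets, and the brightest stood for each gene. Entrez identifiers matched for 93 of 93 members. A further 10 probe sets with several symbols were not used, and 1 gene that fits the prefixes is not reported here.

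With 1 array per group no test was made, and 2-fold was the limit for calling a gene higher or lower, read against all genes compared. The members and lists were chosen with earlier results of these data known. Named genes were fixed catalytic, core and isoform genes, every member past 2-fold, the 2 members furthest to each side per complex and comparison, and up to 3 genes of each other list; 65 of 93 members met it, and others are named to complete a group. The 7 alternatives were values as deposited, arrays scaled to the same median, floors at the 20th and 60th percentiles, an added constant, the mean of all probe sets, and no _x_at or _s_at probe sets. Counts with the memory array left out were added after the data were seen. Python 3.11.15, numpy 2.4.6, pandas 2.3.3 and scipy 1.17.1 were used, and the steps were tested on simulated data.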

Additional observations from a re-analysis of the deposited data

How the results depend on the processing

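No call reversed under any of the 7 alternatives, though with equal array medians the median over all members, which was not called, changed sign for TOFA against control effector (0.06) and memory against naive. Counts of members 2-fold apart moved by more than 1.5 times in these cases. In control effector against naive the 9 became 15 with values as deposited and 18 with equal array medians. In TOFA against control effector the 0 became 1 with the floor at the 20th percentile. In Rap against control effector the 2 became 1 with equal array medians, with the floor at the 60th percentile and with an added constant. In TOFA against Rap the 2 became 1 with an added constant and with the mean of probe sets. In memory against naive the 0 became 1 with values as deposited, 1 with equal medians and 2 with the floor at the 20th percentile. In memory against control effector the 8 became 47 with equal medians. The 7 members below in all effector arrays became 4 as deposited, 0 with equal medians and 14 without the memory array.

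With equal array medians, the median of memory against naive was -0.39 over all members and -0.39, -0.34, -0.19, -0.30 and -0.47 for complexes I to V, against -0.36 for all genes. For memory against control effector it was -1.03 and -0.97, -0.53, -1.11, -1.07 and -1.15, against -0.31 for all genes.

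Calls of a complex, or of all members, that were gained were as follows. Higher in control effector against naive were all members with values as deposited (0.52), with equal medians (0.63) and with the mean of probe sets (0.32), and complex I with these (0.42, 0.53, 0.27) and with the floor at the 60th percentile (0.36). Lower in Rap against control effector were all members, complexes I, IV and V as deposited (-0.10, -0.09, -0.12, -0.07) and with equal medians (-0.06, -0.05, -0.08, -0.03), and all members and complex I without _x_at and _s_at probe sets (-0.09, -0.09). In TOFA against Rap, complex II was higher as deposited (0.06) and with equal medians (0.15), complex IV lower as deposited (-0.14), with equal medians (-0.06) and with the floor at the 60th percentile (-0.13), and complex III lower without _x_at and _s_at probe sets (-0.06). In memory against naive, complex IV was higher with the floor at the 60th percentile (0.14), and complexes I and II with the mean of probe sets (0.03, 0.09).

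Calls lost were complex V in control effector against naive (0.26) and complex III in TOFA against control effector (-0.11), both with the mean of probe sets. In TOFA against Rap they were complexes I and V with the mean of probe sets (0.11, -0.12) and without _x_at and _s_at probe sets (0.09, -0.07). In memory against control effector they were complex I with the floor at the 20th percentile (-0.28), an added constant (-0.26) and without _x_at and _s_at probe sets (-0.27), complex III with the mean of probe sets (-0.20) and without those probe sets (-0.26), and complex IV and all members with the mean of probe sets (-0.31, -0.26). The causes were not tested. Among named genes, 17 values fell under 2-fold, 49 passed it and 155 moved by more than the spread between probe sets. Differences under 2-fold could change sign among these, as the median over all members did in memory against naive with equal array medians. No paired analysis was possible because each group has 1 array. Signal near the floor limits Ndufb1, Ndufb4, Cox4i2, Cox6b2 and Cox7a1.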
